A study of Mus musculus with 4 samples.

Results

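The Schlafen genes measured here were 7 mouse genes, Slfn1, Slfn2, Slfn3, Slfn4, Slfn5, Slfn8 and Slfn9, taken by symbol from the 19030 genes of an RNA sequencing table of inguinal white adipose tissue (ingWAT). The family was chosen by the FPKM values of the comparison itself, because Slfn4 had the largest rise of all protein-coding genes between the 2 genotypes, and the question was which of its paralogues shared that rise. The values of its members in that comparison are therefore given as a description without a test. Slfn14 was not analysed here.

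The tissue came from C57BL/6 mice aged 3 months and kept in the cold at 4°C, with 2 libraries of each genotype. Ctrl mice, labelled Control, carried floxed alleles of Oct3 on both chromosomes (Oct3 fl/fl), and cKO mice, labelled Oct3 deficient, carried the same alleles together with Adiponectin-Cre, so all mice shared the floxed gene and the cold. Oct3, encoded by Slc22a3, is a transporter that carries norepinephrine and other catecholamines into cells. Adiponectin-Cre is driven by an adipocyte promoter, so the deletion is aimed at adipocytes and not at the immune and vascular cells of the depot. Neither the number of mice behind a library nor separate litters are given, and the p-values below measure only the spread between these libraries. Slc22a3 stood at 16.95 and 17.68 FPKM (fragments scaled to the length of the transcript and to the size of the library) in the Ctrl libraries and at 9.07 and 9.50 FPKM in the cKO libraries. Its log2 difference was −0.83 ± 0.066 (SE, n = 2 per group, limma adjusted p = 0.000439).

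Schlafen proteins are named after the German word for sleep, because the first of them slowed the growth of thymocytes when over-expressed. The genes lie side by side in a cluster and are known mainly from immune cells, where many of them are induced by type I interferon. The short members, Slfn1 and Slfn2, and the intermediate members, Slfn3 and Slfn4, share the N-terminal Schlafen core, and the long members, Slfn5, Slfn8 and Slfn9, carry in addition a C-terminal region that resembles a helicase. Interferon-stimulated response elements are the usual promoter feature of genes induced by type I interferon.

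The 7 genes occupied 264 kb of chromosome 11, from 82951349 to 83215154 in GRCm38, in the order Slfn5, Slfn9, Slfn8, Slfn2, Slfn1, Slfn4 and Slfn3. Slfn8 and Slfn9 lie on the minus strand and the others on the plus strand. Promoter windows of 300 bases, 250 before and 50 after the start site, were taken from RefSeq annotation of GRCm38.p6, and 7 of 7 members matched. The parts upstream of the start site are shown for all 7, because Slfn1 to Slfn4 shared a word and the long members held a motif core, both marked below. Each run covers the 170 bases before the RefSeq start site, 5′ to 3′ on the strand of the gene, and capitals mark the word ACTTCCTGG, the response element core GAAANNGAA on either strand, or the AP-1 motif TGANTCA. The start site used for Slfn5 lies 753 bases inside the gene as bounded above, and that of Slfn4 lies 14 bases inside, while the others coincide.
Slfn4 (chr11:83175016-83175185, plus strand): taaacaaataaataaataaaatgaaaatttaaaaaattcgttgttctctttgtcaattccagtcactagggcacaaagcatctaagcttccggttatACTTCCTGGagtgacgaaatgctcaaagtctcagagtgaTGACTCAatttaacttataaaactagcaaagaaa
Slfn1 (chr11:83116650-83116819, plus strand): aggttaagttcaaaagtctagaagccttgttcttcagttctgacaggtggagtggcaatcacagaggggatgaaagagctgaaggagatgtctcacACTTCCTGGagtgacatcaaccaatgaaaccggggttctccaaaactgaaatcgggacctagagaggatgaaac
Slfn2 (chr11:83064942-83065111, plus strand): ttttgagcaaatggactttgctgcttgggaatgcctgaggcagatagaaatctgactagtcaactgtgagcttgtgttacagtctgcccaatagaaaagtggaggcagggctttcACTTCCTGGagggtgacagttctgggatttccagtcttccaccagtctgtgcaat
Slfn3 (chr11:83191160-83191329, plus strand): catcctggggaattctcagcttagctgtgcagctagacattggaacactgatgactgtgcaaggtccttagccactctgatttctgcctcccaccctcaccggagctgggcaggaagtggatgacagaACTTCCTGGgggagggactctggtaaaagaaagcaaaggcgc
Slfn8 (chr11:83020811-83020980, minus strand): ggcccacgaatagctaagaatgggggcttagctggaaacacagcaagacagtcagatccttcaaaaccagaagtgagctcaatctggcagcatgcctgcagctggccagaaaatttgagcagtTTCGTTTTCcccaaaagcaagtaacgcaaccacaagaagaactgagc
Slfn9 (chr11:82991831-82992000, minus strand): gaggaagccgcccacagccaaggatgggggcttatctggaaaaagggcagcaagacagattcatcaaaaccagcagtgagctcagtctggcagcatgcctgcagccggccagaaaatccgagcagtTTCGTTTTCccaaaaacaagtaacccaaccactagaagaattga
Slfn5 (chr11:82951932-82952101, plus strand): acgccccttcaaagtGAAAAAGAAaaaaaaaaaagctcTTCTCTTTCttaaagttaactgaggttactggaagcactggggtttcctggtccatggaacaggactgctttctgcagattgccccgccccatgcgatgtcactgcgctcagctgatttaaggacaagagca

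The word ACTTCCTGG was the longest run of letters common to the promoters of Slfn1, Slfn2, Slfn3 and Slfn4, beginning at positions −74, −55, −42 and −73 counted from their start sites. It was noticed after the sequences had been compared, it was found on the strand of the gene, and it occurs on that strand in 277 of 32851 promoters of the same length (0.843%). It was not found in the windows of Slfn5, Slfn8 or Slfn9. Slfn4 and Slfn1 shared the longer word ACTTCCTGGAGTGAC, which was in 2 promoters of the table, their own. Slfn8 and Slfn9 shared a different run, TCTGGCAGCATGCCTGCAGC, which was in 3 promoters.

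The core GAAANNGAA of the interferon-stimulated response element, searched on both strands, was found in Slfn5 at positions −155 and −132, in Slfn8 at −47 and in Slfn9 at −44. Of all promoters 8.56% held it, and the 300-base windows of Slfn1, Slfn2, Slfn3 and Slfn4 did not. The gamma-activated site TTCNNNGAA was in none of the 7 windows and in 8.30% of all promoters. The AP-1 motif TGANTCA was in that of Slfn4 alone among the members, at position −34, and in 7.81% of promoters. The NF-kB motif GGNNTTTCC was in Slfn2 and Slfn5 (5.82% of promoters). The letters TGACG, only a part of the full CRE motif, were in Slfn1 and Slfn4 (20.8%), and the PU.1 core GAGGAA was in Slfn9 (28.3%). The Slfn4 window had a GC content of 33.7%, with 2.61% of promoters lower. These matches describe letters within 300 bases and not bound sites.

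Slfn4, a gene of myeloid cells that is induced by interferon and Toll-like receptor ligands and falls as macrophages mature, was the member that changed most. It stood at 0.36 and 0.35 FPKM in the Ctrl libraries and at 12.6 and 8.15 FPKM in the cKO libraries. Both cKO libraries were far above both Ctrl libraries, and the ratio of the group means was 29.2, with 22.6 between the lowest cKO and the highest Ctrl library. On the log2(FPKM + 1) scale the difference was 3.04 ± 0.177 (SE, n = 2 per group), and with a pseudocount of 0.1 it was 4.49. Slfn4 ranked 1 of 12658 genes tested and 1 of 12108 protein-coding genes tested, as the choice of the family implies. The 2 cKO libraries differed from each other by a ratio of 1.55. In reads, estimated from the FPKM, Slfn4 had about 26 and 24 in Ctrl and 860 and 561 in cKO, and the exact Poisson 95% intervals of the 2 cKO libraries, 803 to 919 and 516 to 609, did not overlap. Such intervals cover counting error only.

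Slfn1, the founding member that slows T-cell growth, stood at 5.21 and 5.61 FPKM in Ctrl and at 11.45 and 12.78 FPKM in cKO. All cKO values were at least 2.04 times any Ctrl value, and the log2 difference was 1.03 ± 0.0822. Slfn2, which keeps T cells and monocytes quiescent and whose loss impairs immunity in the elektra mouse, stood at 24.77 and 27.02 FPKM in Ctrl and at 43.08 and 45.41 FPKM in cKO. Its groups did not overlap either, with a ratio of means of 1.71 and a log2 difference of 0.75 ± 0.0661. Among all genes tested, the log2 difference of Slfn1 ranked 86 and that of Slfn2 ranked 187.

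Slfn3, studied mostly in the differentiation of intestinal epithelium, stood at 1.13 and 1.12 FPKM in Ctrl and at 1.58 and 2.09 FPKM in cKO. The groups did not overlap, yet the level was low and the log2 difference of 0.41 ± 0.129 carried the largest relative error of the members that were higher in both cKO libraries. The estimated reads were 37 and 35 in Ctrl and 49 and 65 in cKO. The 95% counting intervals of both Ctrl libraries, 26.1 to 51.0 and 24.4 to 48.7, overlapped that of the first cKO library, 36.3 to 64.8. The interval of the second cKO library, 50.2 to 82.8, overlapped that of the first Ctrl library and not that of the second.

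Among the long members, Slfn8 stood at 5.94 and 5.40 FPKM in Ctrl and at 8.46 and 8.74 FPKM in cKO. Its groups did not overlap, with a ratio of means of 1.52 and a log2 difference of 0.53 ± 0.0782. Slfn5, an interferon target and the most abundant Schlafen transcript of the Ctrl libraries, stood at 36.63 and 34.19 FPKM in Ctrl and at 32.93 and 34.03 FPKM in cKO. The cKO libraries lay below the Ctrl libraries by a margin smaller than the spread within either group, and the log2 difference was −0.08 ± 0.0613. Slfn9, the closest relative of Slfn8, stood at 1.10 and 0.81 FPKM in Ctrl and at 0.90 and 0.97 FPKM in cKO, and its groups overlapped. Its mean of 0.945 FPKM was under the minimum of 1 set for testing, so 6 of the 7 members were tested.

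**Figure D1:**
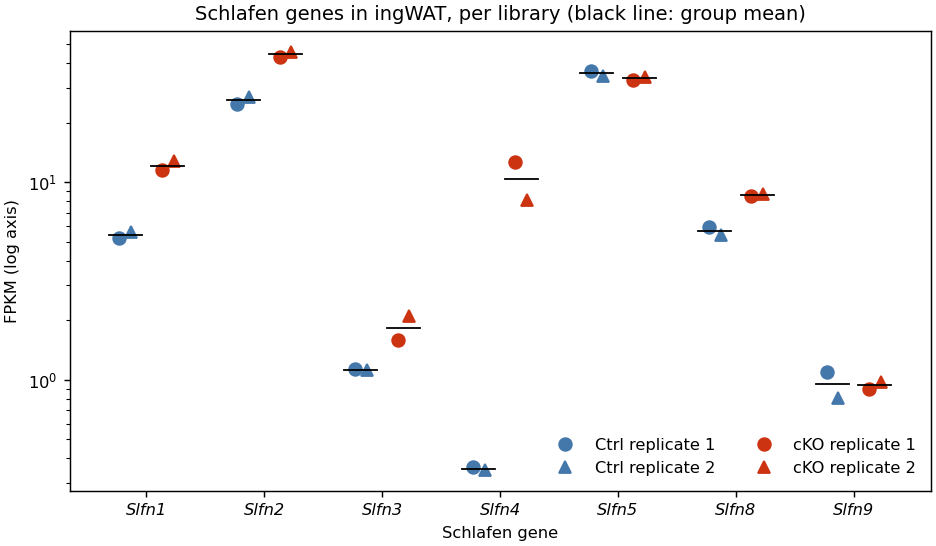
FPKM of the 7 Schlafen genes on a log axis in each of the 4 ingWAT libraries, with Ctrl in blue, cKO in red, circles for replicate 1, triangles for replicate 2 and a black line at each group mean. Slfn4 moved from 0.36 and 0.35 FPKM to 12.6 and 8.15 FPKM, Slfn1, Slfn2, Slfn3 and Slfn8 had both cKO values above both Ctrl values, and the values of Slfn5 and Slfn9 lay close together in both groups.

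Of all 12658 genes tested, 25.8% passed an adjusted p under 0.05, 12% as higher and 13.8% as lower in cKO. No such count is given for the members, since the same contrast chose the family and Slfn4 passed the minimum level only through its cKO libraries. The median log2 difference of the 6 members was 0.64, and that of all genes tested was −0.006. Both cKO libraries lay above both Ctrl libraries for 5 of the 7 members and for 26.1% of all genes listed (5 of the 6 tested members and 31.9% of genes tested). They lay below for 1 member, Slfn5, and for 29.9% of genes listed (34.6% of genes tested), and nothing is read from these counts.

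The order of the levels changed with genotype. In Ctrl it ran from Slfn5 through Slfn2, then Slfn8 and Slfn1, Slfn3 and Slfn9 to Slfn4, which was the lowest. Only Slfn8 and Slfn1 overlapped with their neighbour in that order. In cKO Slfn2 came first and Slfn5 next, followed by Slfn1, Slfn4 and Slfn8, and then by Slfn3 and Slfn9. There, only Slfn1 with Slfn4 and Slfn4 with Slfn8 overlapped. Slfn4 made up 0.479% and 0.470% of the FPKM of the family in the Ctrl libraries and 11.4% and 7.27% in the cKO libraries.

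The FPKM of the 7 genes summed to 74.8 ± 0.453 in Ctrl and to 112 ± 0.827 in cKO (SD, n = 2). Slfn2, whose fold difference was modest, accounted for 49.9% of that gain of 36.8 FPKM, Slfn4 for 27.3%, Slfn1 for 18.2%, Slfn8 for 7.97% and Slfn3 for 1.93%. Slfn5 took away 5.25% of it (its own change was −1.93 FPKM).

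Schlafen genes resemble one another, and reads that fit several of them can be divided wrongly. The coding sequences of Slfn3 and Slfn4 were identical at 95.4% of 1520 aligned bases, and those of Slfn8 and Slfn9 at 92.7% of 2733 bases. The next closest pair was Slfn2 and Slfn3 with 78.1% of 917 bases, and Slfn5 did not exceed 66.2% with any other member. Of all 50-base words of a transcript, the length of a read, 99.4% of those of Slfn1 occurred in no other annotated gene, 95.7% for Slfn2, 88.4% for Slfn4, 88.2% for Slfn5, 88.1% for Slfn9, 84.6% for Slfn8 and 76.3% for Slfn3.

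**Figure D2:**
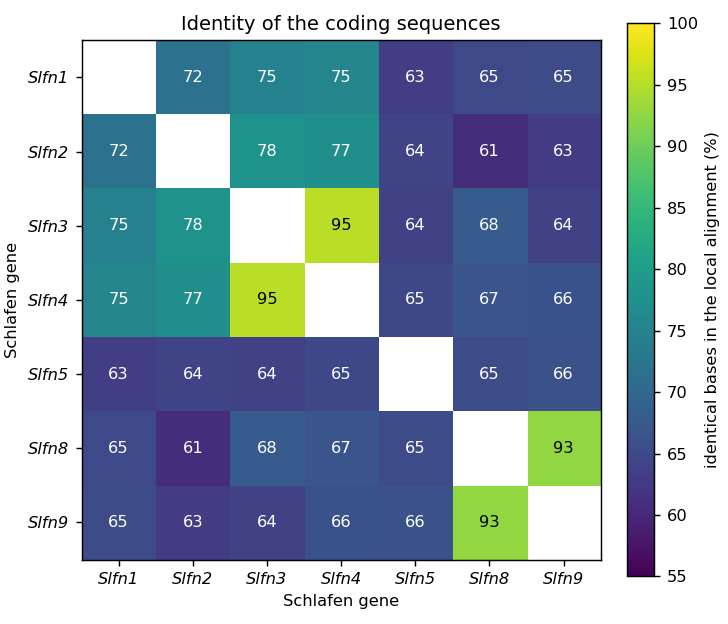
Percentage of identical bases in the best local alignment of each pair of coding sequences of the 7 Schlafen genes, with lighter colours for higher identity and the diagonal left blank. Slfn3 with Slfn4 (95.4%) and Slfn8 with Slfn9 (92.7%) stand out, and every other pair is at 78.1% or lower.

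The low level of Slfn3 made it the member most exposed to this. Its transcript shared 12.5% of its words with the annotated gene Gm11427, with which Slfn4 shared 4.12% of its own. The transcript of Slfn3 shared 14.3% of its words with Slfn4, which in turn shared 6.45% of its words with Slfn3. Applied to the estimated reads of Slfn4, that share came to 55.4 and 36.2 reads in the 2 cKO libraries, against 1.68 and 1.55 in the Ctrl libraries, while the mean of Slfn3 rose by 21 reads. How the reads were divided between these genes was not tested, and the value of Slfn3 is uncertain. For Slfn8 and Slfn9 the shares were 9.82% and 6.24%, and for Slfn5 7.88% of the words were shared with its antisense gene Slfn5os, whose reads cannot be told apart from those of Slfn5 without strand.

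Along the chromosome, the members that were higher in cKO were neighbours, from Slfn8 through Slfn2, Slfn1 and Slfn4 to Slfn3, and Slfn5 and Slfn9 lay together at the other end. Of the 5 nearest listed genes on each side of the cluster, 8 were tested. Of these, 1 was higher and 1 lower in cKO, against 12% and 13.8% of all genes tested, and nothing is read from these counts. Their median log2 difference was −0.15. The gene that was higher, AI662270, a long non-coding RNA directly beyond Slfn3, stood at 13.39 and 13.11 FPKM in Ctrl and at 16.31 and 18.33 FPKM in cKO (log2 difference 0.36 ± 0.0740, limma adjusted p = 0.0124). The gene that was lower was Unc45b, a myosin chaperone of muscle directly beyond Slfn5. It stood at 9.44 and 8.43 FPKM in Ctrl and at 6.24 and 6.84 FPKM in cKO (log2 difference −0.40 ± 0.0853, limma adjusted p = 0.0148). The listed skeletal muscle genes summed to 2075 and 1380 FPKM in Ctrl and to 8.25 and 6.41 FPKM in cKO. The part of muscle in the value of Unc45b was not tested.

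**Figure D3:**
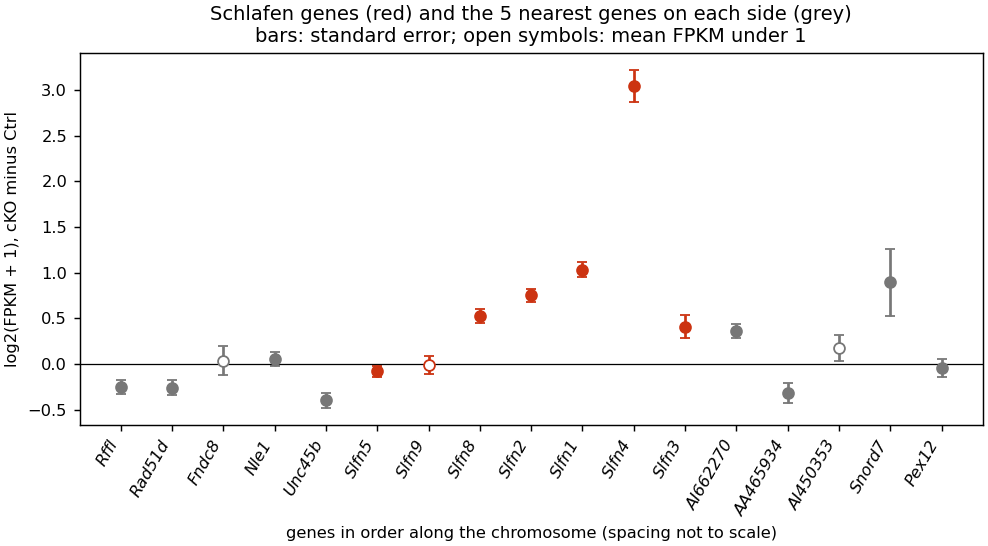
Difference in log2(FPKM + 1), cKO minus Ctrl, of the 7 Schlafen genes (red) and of the 5 nearest genes on each side (grey), in chromosomal order and not to scale, with standard errors as bars and open symbols for genes with a mean FPKM under 1. Slfn4 stands at 3.04, its direct neighbours Slfn1 and Slfn3 at 1.03 and 0.41, Slfn2 and Slfn8 at 0.75 and 0.53, and the flanking genes between −0.40 and 0.90, the last of these being the small RNA Snord7.

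The genes outside the family whose pattern over the 4 libraries was nearest to that of Slfn4 were sought by the distance between log2(FPKM + 1) values, each gene centred on its Ctrl mean. The nearest were the small RNAs Mir7079 and Snord100, at distances of 0.717 and 0.725, both listed at 0 in the Ctrl libraries, where a few reads on a short RNA make several FPKM. The next were Arg1 at 0.894, Clec4d at 1.43 and Slc27a2 at 1.47. The nearest member of the family, Slfn1, was at 2.89.

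Arg1, the arginase of alternatively activated macrophages and of the liver, stood at 0.04 and 0.04 FPKM in Ctrl and at 5.33 and 3.87 FPKM in cKO. Clec4d, a C-type lectin receptor of myeloid cells, stood at 0.29 and 0.72 FPKM in Ctrl and at 5.83 and 4.72 FPKM in cKO. Slc27a2, a fatty acid transporter and very long-chain acyl-CoA synthetase, stood at 3.78 and 6.21 FPKM in Ctrl and at 26.93 and 20.06 FPKM in cKO. Like Slfn4, these 3 genes were higher in the first cKO library than in the second, by ratios of 1.38, 1.24 and 1.34. The distance that chose them used both cKO libraries, so nothing is read from this. For Mir7079 and Snord100 the ratios were 0.757 and 1.01, and for the other tested members they were 0.756 to 0.968.

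Interferon-induced genes were examined as a list of 46, without Schlafen genes. Of these, 23 were higher and 2 lower in cKO by limma with Benjamini-Hochberg adjustment, against 12% and 13.8% of all genes tested, and their median log2 difference was 0.28. Cxcl10, a chemokine that draws activated T cells, stood at 3.49 and 2.95 FPKM in Ctrl and at 9.85 and 8.80 FPKM in cKO (log2 difference 1.29 ± 0.0979, adjusted p = 0.000389). Isg15, a ubiquitin-like modifier, stood at 10.06 and 9.52 FPKM in Ctrl and at 25.56 and 22.64 FPKM in cKO (1.22 ± 0.0772, adjusted p = 0.000217). Both lay between Slfn1 and Slfn4 in size. The 2 genes that fell were the guanylate-binding and immunity-related GTPases Gbp2, with a log2 difference of −0.23 (adjusted p = 0.0297), and Iigp1, with −0.32 (adjusted p = 0.00937). The summed FPKM of the list had a cKO mean of 0.924 of its Ctrl mean, with sums of 2745 and 2438 in Ctrl and 2452 and 2336 in cKO that overlapped. Ifi27l2a, named after its values were seen, made up most of that sum with 1888 and 1643 FPKM in Ctrl and 1470 and 1421 FPKM in cKO (adjusted p = 0.0671), and without it the ratio was 1.15. Without the first Ctrl library 9 of the 46 were called, without the second Ctrl library 11 and without the first cKO library 12, in either direction. Neither fall passed when either Ctrl library was left out, with 2 and 3 genes of the list lower at an unadjusted p under 0.05.

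Of 24 genes of interferon receptors, their signalling and the receptors upstream, 22 were tested. Of these, 6 were higher and 2 lower in cKO, against 12% and 13.8% of all genes tested, and the median log2 difference was 0.09. Irf5 and Irf8, transcription factors of myeloid cells that drive interferon and cytokine genes, rose by 0.58 ± 0.0610 (adjusted p = 0.00115) and 0.50 ± 0.0806 (adjusted p = 0.00516) on the log2 scale. Tlr4, the endotoxin receptor, fell by 0.49 (adjusted p = 0.00774), and Ifngr1, a chain of the interferon gamma receptor, fell by 0.38 (adjusted p = 0.0229). These calls were few without some libraries, with 1 left without the first Ctrl library, 2 without the second Ctrl library and 5 without the first cKO library. Neither fall passed when either Ctrl library was left out, with 2 genes lower at an unadjusted p under 0.05 each time.

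Schlafen genes are known mainly from immune cells, but which cells held their transcripts here was not measured. In whole tissue, fewer cells of a type cannot be told apart from less RNA per cell. Of all genes tested, 12% were called higher and 13.8% lower, and these shares stand beside the counts of both lists below. Of 11 T-cell genes tested, 10 were higher and 0 lower in cKO (11 and 0 at an unadjusted p under 0.05, limma), with a median log2 difference of 0.60. Their FPKM summed to 134 and 139 in Ctrl and to 188 and 247 in cKO, a ratio of means of 1.59. Cd3d, a chain of the T-cell receptor complex, stood at 10.82 and 11.59 FPKM in Ctrl and at 16.60 and 23.45 FPKM in cKO (adjusted p = 0.00852), and Ccr7, a homing receptor of naive T cells, at 16.58 and 17.12 against 25.21 and 32.33 FPKM (adjusted p = 0.00377). Of 10 B-cell genes, 9 were higher and 0 lower (10 and 0 unadjusted), their FPKM summed to 267 and 303 in Ctrl and to 411 and 465 in cKO, and the ratio of means was 1.54. Cd79a and Cd79b, the signalling chains of the B-cell receptor, rose by 0.72 (adjusted p = 0.00165) and 0.69 (adjusted p = 0.000850). Without the first Ctrl library, 0 of the T-cell genes passed the threshold (9 at an unadjusted p under 0.05) and 2 of the B-cell genes did, and without the second Ctrl library 2 of the T-cell genes did. Without the second cKO library 6 T-cell genes passed. With no filter on low values 0 T-cell genes passed (10 at an unadjusted p under 0.05) and 2 B-cell genes did. The ratios of Slfn2 (1.71), Slfn8 (1.52) and Slfn3 (1.63) were of similar size, and that of Slfn1 (2.24) was larger. Each of these genes, like both lists, was higher in the second cKO library than in the first, but so was Slfn5. No scaling between libraries was applied, and the median-of-ratios factors were 0.973 for the first cKO library and 1.02 for the second. Nothing is read from this shared direction. The part of T and B cells in these values was not tested.

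Markers of myeloid cells were examined as 3 lists, beside the 12% called higher and 13.8% called lower of all genes tested. Of 12 general macrophage and monocyte genes, 3 were higher and 4 lower, the median log2 difference was −0.01, and their FPKM summed to 1045 and 927 in Ctrl and to 1004 and 1033 in cKO, so the groups overlapped. Fcgr1, an Fc receptor, and Ly6c2, a marker of inflammatory monocytes, rose by 1.18 (adjusted p = 0.000354) and 0.74 (adjusted p = 0.000860), whereas Mrc1, the mannose receptor of resident macrophages, fell by 0.72 (adjusted p = 0.00131) and Cd14 fell by 0.63 (adjusted p = 0.00140). Of the 4 genes called lower, 2 were left with no filter and 2 with no trend. Fewer than 4 were also left without the first Ctrl library or either cKO library.

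Of 12 genes of activated myeloid cells, 8 were tested, 6 were higher and 1 lower. The summed FPKM was 26.0 and 23.8 in Ctrl and 50.6 and 42.4 in cKO. Arg1 and Clec4d, described above as the protein-coding genes nearest to Slfn4, had the largest log2 differences of this list, 2.42 ± 0.149 and 2.07 ± 0.164. They and Il1b had a Ctrl mean under 1 FPKM and passed the minimum level only through cKO, so the count of 6 is partly set by that choice. Nos2, the inducible nitric oxide synthase, fell by 0.49 (limma adjusted p = 0.0195). This call was lost with no filter, with a minimum of 5 FPKM and when either Ctrl library or the first cKO library was left out, although 1 gene of the list was lower at an unadjusted p under 0.05 in each of those leave-outs. Without the second Ctrl library 4 of the 6 were called higher. Of 12 neutrophil genes, 6 were tested, 5 were higher and 1 lower, and the sums were 30.1 and 27.6 in Ctrl and 41.6 and 39.9 in cKO. Among the 5, 1 had a Ctrl mean under 1 FPKM and passed the minimum level only through cKO. The count of 5 is therefore partly set by that choice. The calprotectin genes S100a8 and S100a9 rose by 1.30 (adjusted p = 0.000189) and 0.94 (adjusted p = 0.000733). Mmp9, a gelatinase, fell by 0.67 (adjusted p = 0.00665). The call of Mmp9 was lost with no filter and when the first Ctrl or the second cKO library was left out. Of the 5 neutrophil genes, 3 were called higher when either Ctrl library was left out. The defining marker Ly6g was under 0.1 FPKM in every library. The ratio of means was 1.87 for activated myeloid genes and 1.41 for neutrophil genes, against 29.2 for Slfn4, and the part of these cells in the rise of Slfn4 was not tested.

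**Figure D4:**
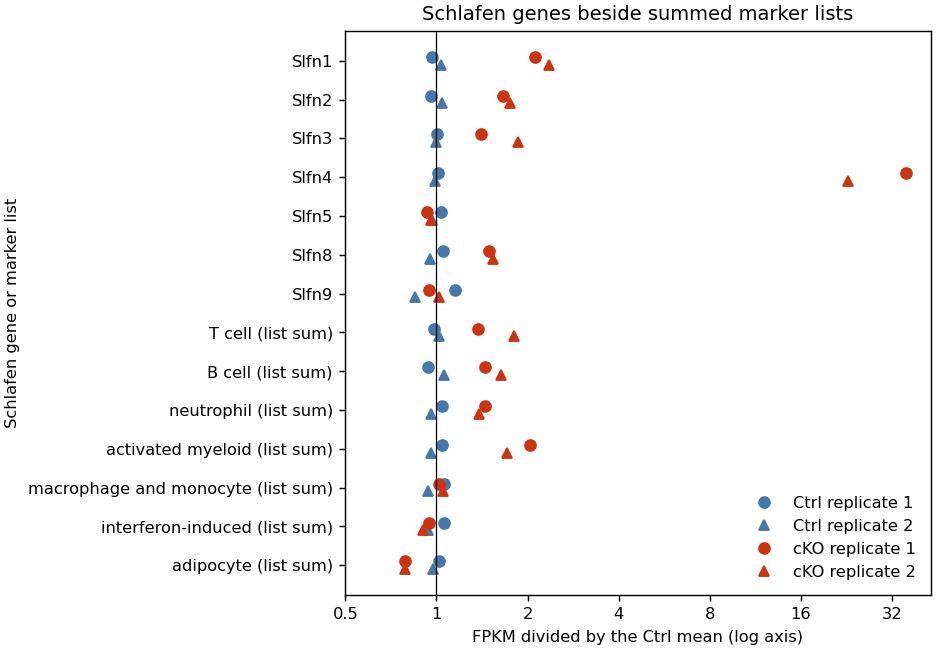
FPKM of each Schlafen gene and summed FPKM of 7 marker lists in each of the 4 libraries, divided by the mean of the Ctrl libraries, on a log axis with colours and symbols for genotype and replicate. Slfn4 stands at 35.5 and 23.0 times its Ctrl mean in the cKO libraries, the T-cell sum at 1.37 and 1.80, the activated myeloid sum at 2.03 and 1.70, and the macrophage and monocyte sum at 1.02 and 1.05.

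The libraries themselves held between 17400000 and 18150000 reads each by an estimate from the FPKM, and their FPKM summed to between 484152 and 497839. The adipocyte markers that define the labelled tissue summed to at least 23351 FPKM in every library. Of these 7 genes, 3 were lower and 0 higher in cKO (3 and 0 unadjusted), among them Lep with a log2 difference of −1.40 (limma adjusted p = 9.48e-05) and Adipoq with −0.58 (adjusted p = 0.00275), and 1 of the 3 was called when either Ctrl library was left out. Skeletal muscle genes summed to 2075 and 1380 FPKM in the Ctrl libraries and to 8.25 and 6.41 FPKM in the cKO libraries, with 7 of 7 tested called lower. Of these 7, 5 had a cKO mean under 1 FPKM and passed the minimum level only through Ctrl, so this count is partly set by that choice. Of all genes tested, 12% were called higher and 13.8% lower. The part of the muscle difference in the Schlafen values was not tested.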

How the data were processed

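The authors sequenced polyadenylated RNA of ingWAT in 2 Ctrl and 2 cKO libraries as single-end reads of 50 bases, with no step that marks strand described, and the deposited table gives FPKM per gene and library. Per the labels' processing notes the authors used HISAT2 2.0.4, RSEM 1.2.12 and the build mm10, with RefSeq transcripts. No scaling between libraries is stated.

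The members, the gene lists and the tests were chosen with earlier results of these data known. The test was limma 3.58.1 (R 4.3.3, eBayes with a trend) on log2 values of FPKM plus a pseudocount of 1, for genes averaging 1 FPKM or more, with all 4 libraries, no covariate and Benjamini-Hochberg adjustment over 12658 genes. A fold change on this scale understates that of low genes. The procedure was tested on simulated data. Slfn9, under the filter, was fitted with no filter.

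Named genes are the members, Slc22a3, the 5 genes nearest to Slfn4, the 5 neighbours on each side, and, of each of the 17 lists, the 2 largest rises and falls among genes called. Snord7, Il1b and Ifi27l2a were named after their values were seen. Lists covered interferon-induced genes, interferon receptors and signalling, and markers of macrophages and monocytes, neutrophils, activated myeloid cells, T cells, B cells, natural killer cells, dendritic cells, endothelium, adipocytes, fibroblast progenitors, skeletal muscle, keratinocytes, mammary and other epithelium, erythroid cells, and Schwann cells and nerve, whose result is not reported here.

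Depth was estimated from the steps between FPKM values of 303 RNAs of at most 400 bases, with 36 bases taken off each length. Of the values up to 6 reads, 85.2% to 91.2% per library came out whole within 0.1 read. Whole reads were not recovered for longer genes, so no count test was run, and members' reads are estimates. Intervals are exact Poisson.

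Promoters came from the RefSeq table of GRCm38.p6, and gene positions and transcripts from GENCODE M21 and RefSeq. Coding sequences were aligned locally with Biopython 1.88 (match 2, mismatch −2, gap opening −6, extension −1). Python 3.11.15 with pandas 2.3.3 and matplotlib 3.10.9 was used for the rest. Alternatives were another pseudocount (0.1), no filter, a minimum of 5 FPKM, median-of-ratios and quantile scaling, a replicate block, no trend, and leaving out each library.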

Additional observations from a re-analysis of the deposited data

How the results depend on the processing

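The 3269 genes called became 1762 with no filter on low values and 787 to 2340 when 1 library was left out (787 without the first Ctrl library, 1478 without the second and 2152 without the first cKO library). The median log2 difference of the members, 0.64, was 0.71 with a pseudocount of 0.1, 0.53 with no filter, where Slfn9 entered, 0.75 with a minimum mean of 5 FPKM, where Slfn3 left, and 0.61 to 0.67 with 1 library left out. The 25 interferon-induced genes called became 10 with no filter and 9 to 20 with 1 library left out. The 8 genes of interferon receptors and signalling became 1 with no filter, 4 with no trend and 1 to 6 with 1 library left out. The 65 cell type markers called became 38 with no filter and 31 to 58 with 1 library left out. The cause of these shifts was not tested, beyond fewer libraries or other genes tested. Slfn4 ranged from 2.76 to 4.49 on the log2 scale over all alternatives and Slfn3 from 0.28 to 0.65, and no tested member changed direction. With a replicate block 3383 genes were called, 27 of the interferon-induced list, 8 of receptors and signalling and 67 cell type markers, and the members' median stayed at 0.64. The labels tie same-numbered libraries by nothing but the number, and their deviations correlated with r = 0.0148 over genes. With 2 libraries per group this cannot show whether they shared a litter or a batch. The depth, estimated and not given, limits Slfn3 and Slfn9 most, and Slfn4 in the Ctrl libraries.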

Other observations

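Relatives of the family outside the 7 genes were low. The pseudogene Slfn10-ps, which lies between Slfn8 and Slfn2, stood at 0.39 and 0.48 FPKM in Ctrl and at 0.67 and 0.51 FPKM in cKO, and it shares 10.7% of the 50-base words of Slfn8 and 8.44% of those of Slfn9. Slfn5os, antisense to Slfn5, stood at 0.81 and 0.66 FPKM in Ctrl and at 1.25 and 0.82 FPKM in cKO. Slfnl1, a Schlafen-like gene on chromosome 4, was at 0.07 FPKM or lower in every library. These genes had a mean under 1 FPKM and were not tested.

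The remaining marker lists gave these calls by limma with adjustment over all genes tested. Beside the counts below stand 12% called higher and 13.8% called lower of all genes tested, and nothing is read from these counts. Of 7 natural killer genes 1 was higher, the perforin gene Prf1 (log2 difference 0.42, adjusted p = 0.0284). Of 7 dendritic genes 1 was higher, the integrin Itgax (0.47, adjusted p = 0.0243), and 1 lower, the lectin Cd209a (−0.75, adjusted p = 0.000845). Of 7 endothelial genes 3 were lower, among them Tek (−0.60, adjusted p = 0.00201) and Emcn (−0.38, adjusted p = 0.00962). Of 7 fibroblast progenitor genes 5 were lower, among them Pi16 (−1.94, adjusted p = 0.000178) and Cd34 (−1.05, adjusted p = 0.000389). The largest falls among muscle genes were those of Ckm (−7.51, adjusted p = 3.58e-06) and Tnnt3 (−7.27, adjusted p = 3.58e-06). Of 2 keratinocyte genes tested 1 was lower, Trp63 (−0.76, adjusted p = 0.00382), which passed the minimum level only through Ctrl. Of 3 erythroid genes 1 was lower, Alas2 (−0.34, adjusted p = 0.0107). Several of these calls were lost when 1 library was left out. Those of Prf1 and Itgax did not pass when either Ctrl library or the second cKO library was left out, nor with no filter, where 1 or 2 genes of each list were higher at an unadjusted p under 0.05, and that of Alas2 did not pass when either Ctrl library or the first cKO library was left out, where 1 or 2 genes of its list were lower at an unadjusted p under 0.05. The 3 endothelial calls became 1 when either Ctrl library or the first cKO library was left out. Genes of mammary and other epithelium summed to 0.90 FPKM or less in each library, and 0 of them reached the minimum for testing.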
